A study of Saccharomyces cerevisiae with 28 samples.

Results

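The shm2 strain, which lacks the cytosolic serine hydroxymethyltransferase gene SHM2, was compared with its wild-type strain BY4741. The 8 libraries of these strains were taken from a series of 28 RNA-seq libraries by their strain labels, with no use of expression values. BY4741 is a common MATa laboratory strain of Saccharomyces cerevisiae that is auxotrophic for histidine, leucine, methionine and uracil, and shm2 carries the SHM2 deletion in addition. Both strains were grown in YPD, a rich medium that supplies amino acids and nucleobases, and were harvested while growing, at an OD600 of 0.7 to 1.0. The marker that replaced SHM2, the number of independent clones and the growth temperature are not given in the sources used here. Each strain had 2 cultures (numbers 2 and 3 for BY4741, numbers 1 and 2 for shm2), and each culture gave 2 libraries from the same RNA. Cultures, and not libraries, were therefore counted as replicates (n = 2 a side). The cultures of sam1 and ser33, which lack the S-adenosylmethionine synthetase gene SAM1 and the phosphoglycerate dehydrogenase gene SER33 in the same BY4741 lineage, entered the same fit to estimate the spread between cultures.

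Serine hydroxymethyltransferase moves the hydroxymethyl carbon of serine to tetrahydrofolate and yields glycine and methylene-tetrahydrofolate, the main source of one-carbon units in the cell. Shm2 works in the cytosol and Shm1 in mitochondria. The one-carbon units feed the synthesis of purines, thymidylate and methionine. Glycine is made by Shm2, Shm1 and the threonine aldolase Gly1, and is broken down in mitochondria by the glycine cleavage complex, whose subunits are Gcv1, Gcv2, Gcv3 and Lpd1. Purine and glycine cleavage genes share a promoter element with the core TGACTC, which the transcription factors Bas1 and Gcn4 recognise.

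Promoter windows of 6 genes that the results below turn on were read from the R64 genome (sacCer3, the build named in the submitters' processing notes). They are shown 5′ to 3′ on the strand of the gene, with every match to TGACTC or its reverse complement GAGTCA in capitals, since this core is the sequence the glycine cleavage, purine and SHM2 promoters have in common.
GCV1, chrIV:485478-485533, minus strand: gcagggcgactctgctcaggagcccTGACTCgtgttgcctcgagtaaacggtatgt
GCV2, chrXIII:637184-637291, plus strand: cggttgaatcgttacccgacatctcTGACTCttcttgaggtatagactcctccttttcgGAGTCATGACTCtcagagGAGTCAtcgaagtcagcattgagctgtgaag
GCV3, chrI:58553-58600, minus strand: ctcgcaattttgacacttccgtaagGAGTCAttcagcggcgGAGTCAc
MTD1, chrXI:590090-590251, plus strand: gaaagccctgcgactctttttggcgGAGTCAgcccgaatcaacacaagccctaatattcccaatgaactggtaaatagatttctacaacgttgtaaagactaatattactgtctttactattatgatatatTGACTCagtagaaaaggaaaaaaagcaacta
ADE1, chrI:169124-169188, plus strand: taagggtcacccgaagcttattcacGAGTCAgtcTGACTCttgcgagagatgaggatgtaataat
SHM2, chrXII:259598-259703, minus strand: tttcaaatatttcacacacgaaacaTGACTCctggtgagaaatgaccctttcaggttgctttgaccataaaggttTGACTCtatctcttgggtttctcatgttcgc

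Over the 400 bases before the start codon, and on both strands, TGACTC occurred in 620 of 6002 promoters (10.3%). It occurred in 9 of the 10 purine synthesis promoters, the exception being ADE16. It occurred in 4 of the 6 promoters of the glycine genes (GCV1, GCV2, GCV3 and LPD1) and not in that of GLY1 or AGX1. The core was as frequent in the arginine and histidine synthesis lists, whose median log2 differences (0.08 and 0.32) were below that of the purine list (0.75). Of 9 arginine promoters, 9 held it, and 4 of those genes were higher in both shm2 cultures than in both BY4741 cultures and 1 lower. Of 6 histidine promoters, 5 held it, and 0 of those 6 genes were higher or lower in this way. The log2 difference was above 0 in 8 of 9 arginine and 6 of 6 histidine genes. Over all 7125 genes, 14.6% were higher and 19.8% lower in this way, and the log2 difference was above 0 in 3301. GCV2 held 4 copies, and 1 copy of each orientation abut. The SHM2 window shown holds 2 of the 3 copies upstream of that gene. A match describes these letters and not a bound factor.

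The deleted gene was examined first. SHM2 (YLR058C, chrXII:257992-259401) had 110.5 and 139.5 RPKM (reads corrected for gene length and for library depth) in the libraries of BY4741 culture 2, and 283 and 350 RPKM in those of culture 3. It had 0.276 and 0.148 RPKM in the libraries of shm2 culture 1 and 0.089 and 0.215 RPKM in those of culture 2, which correspond to 6, 4, 2 and 3 reads. The strain means were 221 ± 136 RPKM in BY4741 and 0.182 ± 0.0424 RPKM in shm2 (SD, n = 2). Thus all 4 shm2 libraries match their label, and BY4741 culture 2 had less SHM2 than culture 3 in both libraries. LEU2, URA3 and MET17 (the gene of the met15 mutation), which BY4741 lacks, had 0 to 10 reads in each library of both strains. HIS3, whose BY4741 allele is a partial deletion, had 286 to 1209 reads in each library (42.3 to 69.1 RPKM), and so does not check the strain labels. SHM2 was the only one of 7125 genes with an adjusted p under 0.05 in limma (log2 difference -7.40, SE 0.478, adjusted p = 0.0359), so 0.014% of all genes were lower and 0% higher at this threshold. Without adjustment, 167 genes were higher (2.34%) and 318 lower (4.46%) at a p under 0.05. The call was lost when any one culture of BY4741 or shm2 was left out, where limma made 0 calls (206 to 1261 genes at an unadjusted p under 0.05), and when sam1 and ser33 were left out of the fit, where limma made 0 calls (353 unadjusted). Over all settings the adjusted p of SHM2 ran from 0.00209 to 0.814 and its log2 difference from -9.50 to -5.29. The neighbours of SHM2 on chromosome XII were read in every library. MNL2 had 30.0 and 29.8 RPKM in the BY4741 cultures and 27.8 and 27.5 RPKM in the shm2 cultures, and REX2 had 57.4 and 57.4 RPKM against 47.7 and 46.5 RPKM. ERG3 and FRS1 overlapped between the strains.

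With 2 cultures a side, the tests of single genes had little reach beyond SHM2, and the genes below are described by their values and by whether the cultures of the strains overlapped. Over all 7125 genes, both shm2 cultures lay above both BY4741 cultures in 1042 genes (14.6%) and below both in 1408 genes (19.8%), and these shares are the background for the counts that follow. None of the differences from BY4741 below passed the test, and every adjusted p is from the same limma fit with Benjamini-Hochberg adjustment over all genes. Since RNA was taken from whole cultures, less RNA per cell and fewer cells that carry it cannot be told apart.

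GCV1 and GCV2 of the glycine cleavage complex had the largest log2 differences above BY4741 of all 7125 genes, and GCV3 came after PHO84. Of the 6 glycine genes, 5 were higher in both shm2 cultures than in both BY4741 cultures and 0 lower, with a median log2 difference of 1.47 against -0.02 over all genes. GCV1, the aminomethyltransferase subunit, had 27.6 and 23.9 RPKM in BY4741 culture 2, 80.9 and 71.8 in culture 3, 391 and 336 in shm2 culture 1, and 414 and 362 in shm2 culture 2. Every shm2 library was thus above every BY4741 library by a wide margin, and the shm2 cultures overlapped each other. The mean of GCV1 was 376 ± 17.2 RPKM in shm2 and 51.1 ± 35.8 RPKM in BY4741 (SD, n = 2), 7.36-fold higher (log2 difference 3.05, SE 0.496, adjusted p = 0.489). GCV2, the glycine decarboxylase subunit, had 20.1, 21.7, 41.8 and 46.8 RPKM in the BY4741 libraries and 243, 257, 223 and 234 RPKM in the shm2 libraries. Among genes with a mean of at least 5 RPKM that were higher in shm2, it had the widest gap between the nearest libraries of the strains (2.23 on the log2 scale). Its mean was 7.34-fold higher (log2 difference 2.93, SE 0.378, adjusted p = 0.303). GCV3, the lipoyl-carrier H protein, had 88.0, 94.2, 221 and 235 RPKM in BY4741 and 684, 744, 563 and 519.6 RPKM in shm2 (3.93-fold, log2 difference 2.1, SE 0.420, adjusted p = 0.644).

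The cultures of each strain were also compared in these genes. Within BY4741, GCV1, GCV2 and GCV3 differed between culture 2 and culture 3 by -1.53, -1.05 and -1.31 on the log2 scale (adjusted p = 0.00222, 0.0016 and 0.00109 in limma on single libraries), and within shm2 they differed between culture 1 and culture 2 by -0.09, 0.13 and 0.40 (adjusted p = 0.661, 0.273 and 0.0175), so GCV3 was called between the cultures of both strains. LPD1, the dihydrolipoamide dehydrogenase that the complex shares with pyruvate and 2-oxoglutarate dehydrogenase, had 225 and 269.6 RPKM in the BY4741 cultures and 277 and 274 RPKM in the shm2 cultures, a log2 difference of 0.16. GLY1, the threonine aldolase that makes glycine without folate, had 65.7 and 82.3 RPKM in BY4741 and 163 and 104.5 RPKM in shm2 (1.81-fold, log2 difference 0.84, adjusted p = 0.685). AGX1, the alanine:glyoxylate aminotransferase, had 5.87 and 3.86 RPKM in BY4741 and 4.85 and 5.81 RPKM in shm2 and was the one glycine gene that overlapped.

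**Figure D1:**
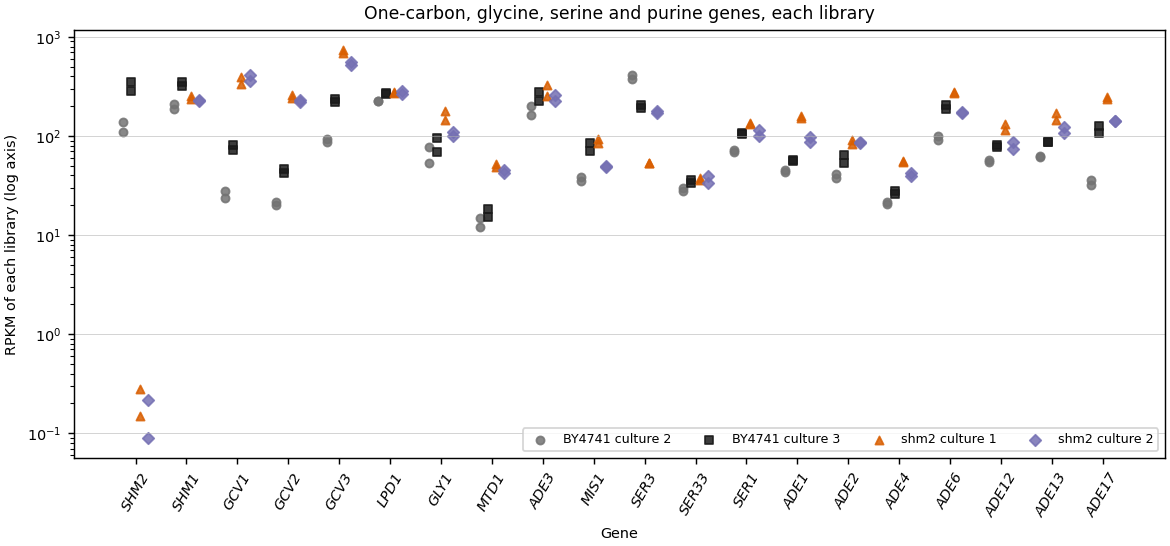
RPKM (log axis) of 20 one-carbon, glycine, serine and purine genes in each of the 8 libraries; the marker and colour give the culture, and the 2 points of a culture are libraries of the same RNA. GCV1, GCV2, GCV3 and MTD1 lie higher in all 4 shm2 libraries than in all 4 BY4741 libraries, SHM2 lies between 0.089 and 0.276 RPKM in shm2, and several ADE genes lie higher in shm2 culture 1 than in culture 2.

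Among the 12 folate enzymes, 4 were higher in both shm2 cultures and 2 lower, SHM2 included, with a median of 0.15. That median changed sign relative to ACT1 and without BY4741 culture 2 or shm2 culture 1 (-0.01, -0.15 and -0.02), so no direction is given for the list. MTD1, the NAD-dependent methylene-tetrahydrofolate dehydrogenase of the cytosol, had 12.2, 14.8, 15.2 and 18.3 RPKM in the BY4741 libraries and 51.7, 49.0, 45.8 and 42.4 RPKM in the shm2 libraries. Its mean was 3.12-fold higher (log2 difference 1.59, SE 0.621, adjusted p = 0.685), and its values were close within BY4741 and within shm2. The SE also holds the spread of the sam1 cultures, which had 40.2 and 175 RPKM. SHM1, the mitochondrial counterpart of SHM2, did not stand out. It had 200.2 and 334 RPKM in the BY4741 cultures and 245 and 227 RPKM in the shm2 cultures, so the shm2 values lay within the BY4741 range. ADE3, the trifunctional C1-tetrahydrofolate synthase of the cytosol, had 183 and 252 RPKM in BY4741 and 291 and 240.5 RPKM in shm2. MIS1, its mitochondrial counterpart, had 37.2 and 78.0 RPKM against 88.7 and 49.4 RPKM. MET12, MET7 and DFR1 (methylene-tetrahydrofolate reductase, folylpolyglutamate synthetase and dihydrofolate reductase) were the other genes higher in both shm2 cultures. DFR1 had 7.39 and 7.97 RPKM against 11.7 and 10.3 RPKM (log2 difference 0.46), and MET12 and MET7 were 1.13-fold and 1.10-fold higher in the mean. CDC21, the thymidylate synthase, overlapped between the strains, with 14.1 and 38.8 RPKM in BY4741 and 49.4 and 22.9 RPKM in shm2.

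Serine synthesis was mixed. SER3 and SER33 encode isozymes of the step that commits 3-phosphoglycerate to serine. SER3 had 375, 411, 190.4 and 208 RPKM in the BY4741 libraries, 53.1 and 54.0 RPKM in shm2 culture 1 and 172 and 178 RPKM in shm2 culture 2. All shm2 libraries were thus below all BY4741 libraries, but shm2 culture 2 lay close to BY4741 culture 3, and SER3 differed between the shm2 cultures by -1.69 on the log2 scale (adjusted p = 0.000519). The difference between the strains was -1.52 (SE 0.612, adjusted p = 0.685). SRG1, the noncoding RNA transcribed across the SER3 promoter on the same strand, overlaps the start of SER3 in the annotation and had 269, 218, 182 and 146 RPKM in BY4741 and 164, 116, 164 and 147 RPKM in shm2. SER33 had 28.9 and 35.0 RPKM in the BY4741 cultures and 37.2 and 36.7 RPKM in the shm2 cultures. SER1, the phosphoserine aminotransferase, had 70.3 and 106.8 RPKM against 134 and 107.2 RPKM (log2 difference 0.46), with shm2 culture 2 and BY4741 culture 3 side by side. SER2 and the serine deaminase gene CHA1 overlapped.

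The genes of purine synthesis from phosphoribosyl pyrophosphate were higher in shm2, more so in culture 1. Of 10 genes, 8 were higher in both shm2 cultures than in both BY4741 cultures and 0 lower, and the log2 difference was above 0 in all 10 (0.23 to 1.53, median 0.75). The median over the list was 0.95 above the BY4741 mean in culture 1 and 0.48 above it in culture 2. The BY4741 cultures lay apart as well, with a median difference of culture 2 from culture 3 of -0.50 and 8 of the 10 genes called higher in culture 3. ADE17, an isozyme of the last steps to inosine monophosphate that takes a formyl group from folate, had 32, 36.3, 107 and 127 RPKM in the BY4741 libraries and 236, 249, 142 and 142 RPKM in the shm2 libraries (2.54-fold, log2 difference 1.53, SE 0.658, adjusted p = 0.685). Culture 2 of shm2 was near BY4741 culture 3 for this gene. ADE1 had 45.4, 43.1, 57.0 and 55.3 RPKM in BY4741 and 161, 153, 97.0 and 87.8 RPKM in shm2 (2.48-fold, log2 difference 1.26, SE 0.394, adjusted p = 0.685). It makes the intermediate SAICAR and was clear of BY4741 in both cultures. ADE4, the amidotransferase of the first committed step, had 21.0 and 26.8 RPKM in the BY4741 cultures and 55.3 and 40.8 RPKM in the shm2 cultures (log2 difference 0.97). ADE2, the carboxylase whose loss gives red colonies, had 39.5 and 58.9 RPKM against 87.3 and 86.3 RPKM (log2 difference 0.84), at the same level in both shm2 cultures.

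ADE13 and ADE12, which make adenosine monophosphate from inosine monophosphate (ADE13 also acts earlier), were 1.83-fold and 1.52-fold higher in the strain mean (log2 differences 0.86 and 0.58). ADE6 and ADE57 overlapped between the strains, since both were lower in shm2 culture 2 (172 and 131 RPKM) than in BY4741 culture 3 (197 and 177 RPKM). ADE8 and ADE16 had the smallest differences of the list. Of the 10 purine regulator and salvage genes, 6 were higher in both shm2 cultures and 2 lower, with a median of 0.48. FCY2, the purine-cytosine permease, had 22.3 and 37.1 RPKM in the BY4741 cultures and 92.4 and 46.1 RPKM in the shm2 cultures (log2 difference 1.16, adjusted p = 0.685). BAS1, which encodes the purine regulator itself, had 10.4 and 10.0 RPKM in BY4741 and 18.6 and 11.4 RPKM in shm2. AAH1, the adenine deaminase, had 32.8 RPKM in shm2 culture 1 and 7.05 RPKM in culture 2, which was below BY4741 culture 3 (8.62 RPKM).

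Beyond these pathways, 304 of the 5728 genes with a mean of at least 5 RPKM (5.31%) had all 4 shm2 libraries above all 4 BY4741 libraries, and 230 (4.02%) had all 4 below. By the gap between the nearest libraries, the 12 widest above were GCV2, GCV1, MTD1, GCV3, ADE1, YOR338W, CTR2, YHR175W-A, ADE4, COS8, snR57 and TPN1. CTR2, a copper transporter of the vacuole, had 20.1 and 26.9 RPKM in the BY4741 cultures and 39.4 and 43.5 RPKM in the shm2 cultures (log2 difference 0.81, adjusted p = 0.635). YHR175W-A, a small gene beside CTR2 on chromosome VIII, had a similar difference (log2 difference 0.77). TPN1, the vitamin B6 transporter, had 20.2 and 23.2 RPKM against 42.3 and 34.2 RPKM (log2 difference 0.78). YOR338W, a gene of unknown function, had 4.49 and 4.14 RPKM in BY4741 but 19.3 RPKM in shm2 culture 1 and 7.51 RPKM in culture 2.

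The 12 widest gaps below BY4741 were those of SHM2, BOL1, ROF1, PRM1, PRM4, YDR124W, YDR541C, FUS1, PRM2, KAR4, KAR5 and RMA1. BOL1, which encodes a mitochondrial protein of iron-sulfur cluster assembly, had 69.0, 73.6, 56.2 and 63.7 RPKM in the BY4741 libraries and 27.2, 31.1, 24.2 and 27.6 RPKM in the shm2 libraries. Its values were uniform within each strain (log2 difference -1.22, SE 0.136, adjusted p = 0.274). BOL1 (chrI:57518-57850) lies on the plus strand and faces GCV3 (chrI:57950-58462) on the minus strand, end to end and without overlap in the annotation. Whether the counting used the strand of the reads is not given in the sources used here. ROF1 had 9.40 and 10.5 RPKM in BY4741 and 3.59 and 4.65 RPKM in shm2 (log2 difference -1.11, adjusted p = 0.321). COS12, a subtelomeric gene of a family of vacuolar proteins, had the smallest p after SHM2. It had 0.31, 0.24, 0.314 and 0.377 RPKM in the BY4741 libraries, 5 to 10 reads each, and 5.55, 4.44, 3.23 and 3.89 RPKM in the shm2 libraries, 44 to 98 reads each. Its log2 difference was 1.99 (SE 0.170, adjusted p = 0.0882) and its mean 13.8-fold higher. COS12 has no copy in the genome with 95% identity over 80% of its length.

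Pheromone-induced genes, which MATa cells express at a basal level and raise when they sense alpha factor, were lower in shm2. The list was lower in ser33 and sam1 too, and more so. It summed to 939 to 962 RPKM in the BY4741 cultures and 645 to 691 RPKM in shm2. In ser33 it summed to 605 to 628 RPKM, and in sam1 to 411 to 548 RPKM. Of 16 genes, 13 were lower in both shm2 cultures than in both BY4741 cultures and 0 higher (median -0.63), and the median was below the BY4741 mean in culture 1 (-0.67) and in culture 2 (-0.48). FUS1, needed for cell fusion in mating, had 81.7, 93.5, 83.9 and 98.9 RPKM in the BY4741 libraries and 45.4, 55.7, 52.2 and 63.2 RPKM in the shm2 libraries (log2 difference -0.72, SE 0.331, adjusted p = 0.685). PRM1, also a fusion gene, had 60.4 and 51.1 RPKM in the BY4741 cultures and 24.7 and 33.7 RPKM in the shm2 cultures (log2 difference -0.92, adjusted p = 0.685). KAR4 and KAR5, which act in nuclear fusion, had 102 ± 2.89 and 21.2 ± 0.616 RPKM in BY4741 and 68.4 ± 2.60 and 13.6 ± 0.811 RPKM in shm2 (SD, n = 2), differences of -0.57 and -0.60. The 3 genes of the list that overlapped between the strains were PRM3, FAR1 and GPA1. GPA1, the G protein subunit of the pheromone pathway, had 77.1 and 76.0 RPKM against 81.9 and 70.7 RPKM. The a-specific genes that report mating type summed to 3597 and 3167 RPKM in BY4741 and 3263 and 2951 RPKM in shm2, with 0 of 7 higher and 1 (AGA2) lower in both shm2 cultures. All 4 alpha-specific genes were lower in both shm2 cultures, but at a summed 24.4 to 27.6 RPKM in BY4741 and 16.7 to 21.5 RPKM in shm2, so all cultures read as MATa.

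**Figure D2:**
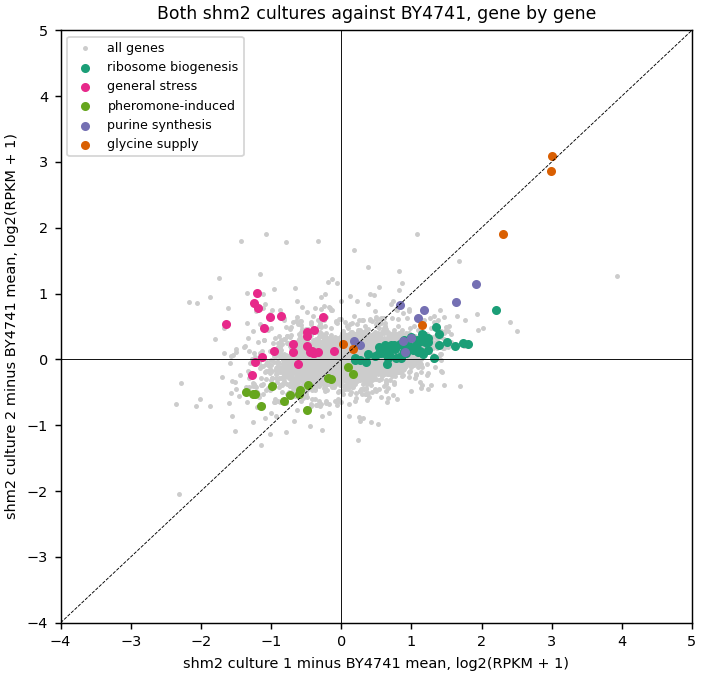
Each point is one of 5728 genes with a mean of at least 5 RPKM, with shm2 culture 1 minus the BY4741 mean on the x axis and shm2 culture 2 minus the same mean on the y axis, both on log2(RPKM + 1); the dashed line marks equal values, and 1 gene (SHM2) lies outside the axes. The median of the glycine genes is at 1.72 on the x axis and 1.21 on the y axis, that of the pheromone-induced genes is at -0.67 and -0.48, the median of the ribosome biogenesis genes is at 0.89 on the x axis and 0.19 on the y axis, and the median of the general stress genes is at -0.66 on the x axis and 0.17 on the y axis.

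Iron and phosphate genes gave contrasting pictures. Of 20 iron uptake genes, 11 were higher in both shm2 cultures and 1 lower (median 0.34, 0.46 in culture 1 and 0.28 in culture 2). SIT1, a siderophore transporter, had 29.6 and 71.4 RPKM in the BY4741 cultures and 84.9 and 104.3 RPKM in the shm2 cultures (log2 difference 1.02), and FTR1, the iron permease, had 24.6 and 49.6 RPKM against 94.2 and 59.6 RPKM (log2 difference 1.08). FET3, the multicopper oxidase that works with Ftr1, had 167 and 267 RPKM against 296 and 352 RPKM (log2 difference 0.61). In each of these genes BY4741 culture 3 was well above culture 2, and the list as a whole was lower in BY4741 culture 2 than in culture 3 (median -0.44). Of 16 phosphate response genes, 7 were higher in both shm2 cultures and 0 lower, with a median of 0.38 that was 0.78 in culture 1 and 0.12 in culture 2. PHO84, the high-affinity phosphate transporter, had 8.13, 10.9, 24.8 and 33.6 RPKM in the BY4741 libraries, 256 and 282 RPKM in shm2 culture 1 and 41.6 and 41.5 RPKM in shm2 culture 2 (log2 difference 2.60, SE 0.909, adjusted p = 0.685). PHM6 had 2.03 and 2.59 RPKM in BY4741, 12.7 RPKM in shm2 culture 1 and 3.59 RPKM in culture 2.

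Other lists are given by their counts. The seripauperin (PAU) genes, a subtelomeric family of cell wall proteins repressed by oxygen, were lower in both shm2 cultures in 16 of 24 genes and higher in 0 (median -0.44). Most are near-identical copies at a few RPKM (21 of 24 have a copy), between which reads may be split. The list summed to 92.4 to 110 RPKM in the BY4741 cultures and 50.3 to 81.2 RPKM in shm2. It was below BY4741 in sam1 (56.6 to 68.55 RPKM) and ser33 (82.4 to 87.45 RPKM) too. PAU24 was the lowest against BY4741, with 4.86 and 4.42 RPKM in the BY4741 cultures and 1.16 and 1.63 RPKM in the shm2 cultures. Of 257 genes within 20 kb of a chromosome end, 39 were higher (15.2%) and 65 lower (25.3%), beside 14.6% and 19.8% over all genes. Of 67 mitochondrial ribosomal protein genes, 33 were higher and 1 lower, but by little (median 0.14), and this median changed sign relative to ACT1. Of 10 sulfate assimilation genes, 1 was higher and 5 lower (median -0.34, -0.61 in culture 1 and -0.11 in culture 2). The list summed to 237 and 223 RPKM in the BY4741 cultures, 182 RPKM in shm2 culture 1 and 226 RPKM in culture 2. SUL2, a sulfate permease, had 5.99 and 4.59 RPKM in BY4741 and 2.40 and 3.50 RPKM in shm2. The hexose transporter list had a median of 0.72 RPKM, and 8 of its 19 genes have a near-identical copy. Its median difference was -0.10, but 0.70 among genes with a mean of at least 1 RPKM, so no direction is given. Of the 19 genes, 1 was higher and 6 lower. The higher one, HXT2, of high affinity for glucose, had 3.01, 3.62, 11.0 and 10.9 RPKM in the BY4741 libraries and 14, 14.4, 24.8 and 27.2 RPKM in the shm2 libraries (log2 difference 1.5, SE 0.592, adjusted p = 0.685), higher in culture 2 than in culture 1. The median of the ethanol and acetate list, -0.11, was 0.03 with the first libraries only and 0.11 without BY4741 culture 2. Of its 15 genes, 2 were higher and 1 lower. ALD6, the cytosolic aldehyde dehydrogenase that makes acetate, had 65.3 and 167 RPKM against 186 and 265 RPKM (log2 difference 1.09) and was the highest of them against BY4741. Of 17 glycolytic genes, 7 were higher and 0 lower (median 0.13, with the opposite sign relative to ACT1), and the isozyme TDH1 had 2746 ± 331 RPKM against 4894 ± 552 RPKM (SD, n = 2, log2 difference 0.86).

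**Figure D3:**
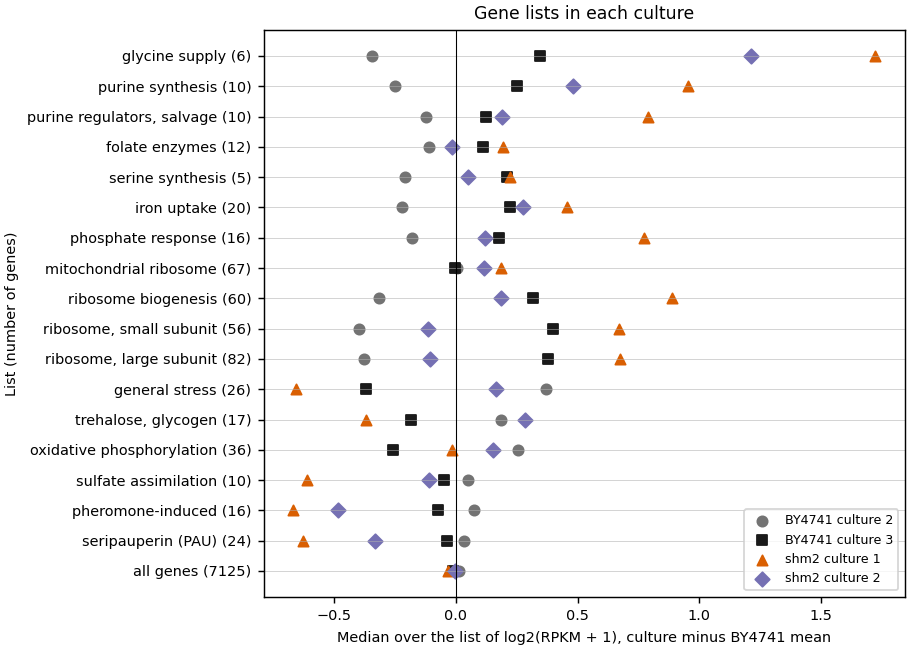
Median over each gene list (number of genes in parentheses) of log2(RPKM + 1) in each culture minus the mean of the BY4741 cultures, which sit on either side of 0 by construction. The glycine and purine lists lie above both BY4741 cultures in both shm2 cultures (1.72 and 1.21 for the glycine list), the pheromone-induced and PAU lists below in both, and the cytosolic ribosomal protein and general stress lists have shm2 culture 1 and culture 2 on opposite sides of 0.

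The shm2 cultures differed from each other in many genes. The median absolute difference per gene was 0.25 between the shm2 cultures, 0.21 between the BY4741 cultures and 0.18 between the strain means, on the log2 scale. The last value is a difference of means of 2 cultures, which averaging alone makes smaller than a difference of single cultures. In limma on single libraries, whose error is only the spread between libraries of one RNA, 1027 genes were higher in shm2 culture 1 (14.4%) and 943 lower (13.2%) at an adjusted p under 0.05. Within BY4741, 638 genes were higher in culture 2 (8.95%) and 861 lower (12.1%). These p-values speak of those cultures and not of a strain.

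Culture 1 of shm2 had more transcript for making ribosomes. Of 60 ribosome biogenesis genes, 51 were higher in culture 1 than in culture 2 and 0 lower, and the list stood 0.89 above the BY4741 mean in culture 1 and 0.19 above it in culture 2. NSR1, the yeast nucleolin, had 19.1, 18.6, 46.7 and 48.1 RPKM in the BY4741 libraries, 156 and 130.4 RPKM in shm2 culture 1 and 57.9 and 44.8 RPKM in culture 2. The ribosomal protein genes were higher in culture 1 for 44 of 56 of the small subunit and 60 of 82 of the large subunit, with 0 lower in either. Their medians were 0.67 and 0.68 above the BY4741 mean in culture 1 and 0.11 below it in culture 2 for both (-0.11), on either side of it. The genes with the largest differences towards culture 1, after PHO84, were the ribonucleotide reductase gene RNR1, with 147 RPKM in culture 1 and 33.6 RPKM in culture 2, AAH1, the flavohemoglobin gene YHB1 and the RNA helicase gene DBP2, with 153 and 42.3 RPKM.

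Culture 2 of shm2 had more transcript of stress and reserve genes. Of 26 general stress genes, 20 were higher in culture 2 and 0 in culture 1, and the list stood at -0.66 against the BY4741 mean in culture 1 and at 0.17 in culture 2. Of 17 trehalose and glycogen genes, 14 were higher in culture 2 and 1 in culture 1. CTT1, the cytosolic catalase, had 45.0 RPKM in culture 1 and 213 RPKM in culture 2, beside 152 and 72.1 RPKM in the BY4741 cultures. DDR2, a multistress gene, had 144 and 659 RPKM, beside 866 and 237 RPKM. TKL2, a minor transketolase, had 7.42 and 65.4 RPKM (log2 difference -2.98, adjusted p = 0.000267), beside 39.3 and 6.74 RPKM. The largest difference in this direction was that of YLR108C, a gene of unknown function, with 5.17 RPKM in culture 1 and 56.4 RPKM in culture 2, and 13.9 and 17.5 RPKM in BY4741. Of these, YLR108C alone was not called between the BY4741 cultures (adjusted p = 0.135 in limma on single libraries).

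The same lists separated the BY4741 cultures. The biogenesis and ribosomal protein lists were lower in BY4741 culture 2, with median differences from culture 3 of -0.63 for biogenesis, -0.80 for the small and -0.76 for the large subunit, and the stress list was higher by 0.74. Across 5728 genes with a mean of at least 5 RPKM, the difference of shm2 culture 1 from culture 2 had a Pearson correlation of 0.754 and a Spearman correlation of 0.723 with that of BY4741 culture 3 from culture 2. These differences share no library, and it is a description across genes, which are not independent of each other. The sources used here give no optical density, time of collection or date for single cultures, and the part of any of them was not tested. No chromosome stood out: the median over the genes of each nuclear chromosome lay between -0.04 and 0.06 of the BY4741 mean in shm2 culture 1 and between -0.03 and 0.03 in culture 2.

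**Figure D4:**
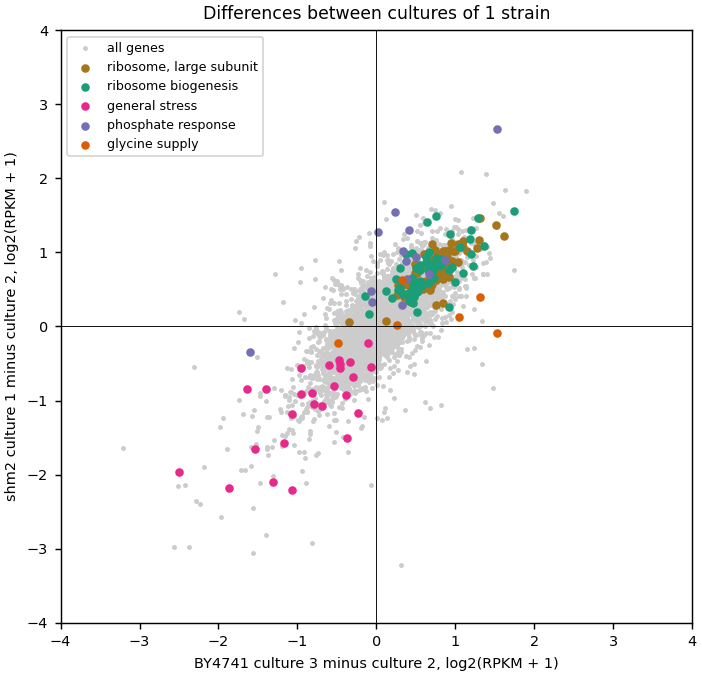
Each point is one of 5728 genes, with BY4741 culture 3 minus culture 2 on the x axis and shm2 culture 1 minus culture 2 on the y axis, both on log2(RPKM + 1). Ribosome biogenesis and ribosomal protein genes lie in the upper right and general stress genes in the lower left, whereas GCV1, GCV2 and GCV3 lie to the right of 0 with differences between the shm2 cultures of -0.09, 0.13 and 0.40.

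The levels in shm2 were finally set beside those of sam1 and ser33, which differ from BY4741 in other genes of the same metabolism. The glycine cleavage genes were high in sam1 too. GCV1 had 241 and 386 RPKM in the sam1 cultures and 37.4 and 33.9 RPKM in the ser33 cultures, and GCV2 had 165 and 268 RPKM in sam1 and 24.4 and 22.7 RPKM in ser33. The log2 differences of shm2 from sam1 were 0.29 for GCV1, 0.19 for GCV2 and 0.23 for GCV3 (SE 0.496, 0.378 and 0.420, adjusted p = 0.739, 0.783 and 0.760), and those from ser33 were 3.36, 3.29 and 1.82 (adjusted p = 0.222, 0.129 and 0.259). ADE17, ADE1 and ADE4 had less transcript in both shm2 cultures than in both sam1 cultures, with log2 differences of -1.32, -1.10 and -0.95 (adjusted p = 0.277, 0.206 and 0.238). BOL1 had 35.0 and 31.7 RPKM in sam1 and 74.9 and 67.9 RPKM in ser33, so it was low in both strains in which GCV3 was high. Of the genes with the 12 widest gaps above BY4741, all but COS8 had both sam1 cultures above both BY4741 cultures as well. MTD1 had 40.2 and 175 RPKM in sam1, CTR2 44.7 and 48.0 RPKM, and COS8 26.7 and 47.5 RPKM. In the ser33 cultures COS8 had 94.6 and 101 RPKM, above both shm2 cultures (74.0 and 73.1 RPKM), so its rise was not particular to shm2. PHO84 had 305 and 449 RPKM in sam1. The iron uptake list summed to 2108 to 2849 RPKM in sam1, beside 830 to 1222 RPKM in BY4741 and 1402 to 1531 RPKM in shm2. In ser33 it summed to 485 to 497 RPKM, below both BY4741 cultures.

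Against sam1, 7 genes were higher in shm2 (0.0982% of all genes) and 6 lower (0.0842%) at an adjusted p under 0.05, and 769 (10.8%) and 793 (11.1%) without adjustment. With the replicate number as a block, limma made 0 calls against sam1 (678 genes at an unadjusted p under 0.05) and 0 against ser33 (741 genes), so the calls below hold only in the fit without it. The 7 were FIG1, BNA2, PRM2, SPS19, COS12, PRM6 and SAM1, which is the gene deleted in sam1, and the 6 were SHM2, DAN1, MET2, MET10, TIR1 and SUL2. FIG1, PRM2 and PRM6 are pheromone-induced. FIG1 had 20.6 and 16.6 RPKM in BY4741, 10.7 and 12.4 RPKM in shm2, 3.44 and 4.34 RPKM in ser33 and 0.5 and 0.514 RPKM in sam1 (shm2 minus sam1, log2 difference 3.06, adjusted p = 0.00409), so the levels in shm2 lay between those of BY4741 and both other mutants. SUL2 had 69.0 and 123 RPKM in sam1 (log2 difference -4.58, adjusted p = 0.00652). COS12 had 0.454 and 0.694 RPKM in sam1 and 0.527 and 0.333 RPKM in ser33. Its log2 difference was 1.74 from sam1 (adjusted p = 0.0292) and 1.87 from ser33 (adjusted p = 0.0842), and both shm2 cultures were above the 6 cultures of the other strains. Against ser33, 1 gene was higher (0.014%), SER33 itself, and 1 lower (0.014%), SHM2, and without adjustment 575 were higher (8.07%) and 513 lower (7.2%).

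**Figure D5:**
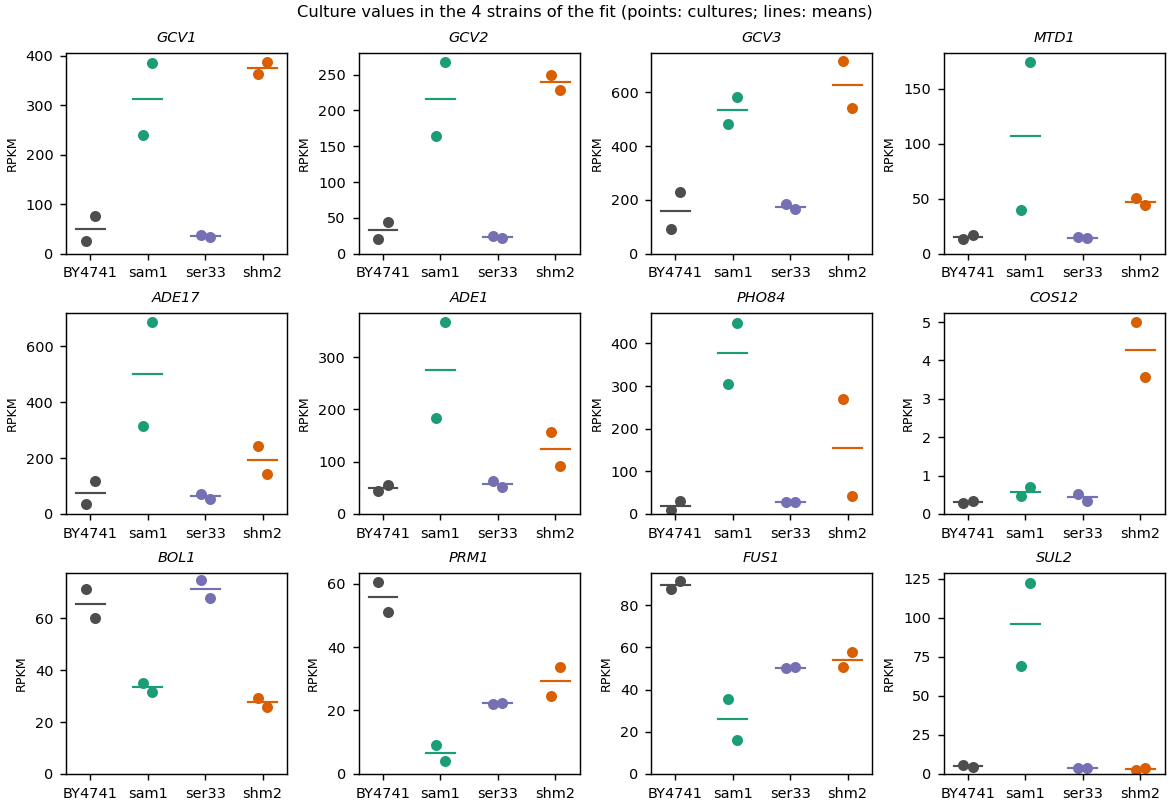
RPKM of 12 genes in each culture (points, mean of 2 libraries) and the mean of 2 cultures (lines) in BY4741, sam1, ser33 and shm2, each panel with its own axis from 0. GCV1, GCV2 and GCV3 are high in both sam1 and shm2, ADE17 and ADE1 are highest in sam1, COS12 is high in shm2 at 5 and 3.56 RPKM, and SUL2 is high in sam1.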

How the data were processed

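The authors deposited RPKM values, in 1 table of 7125 genes and 28 libraries from ribosome-depleted, stranded Illumina libraries. A further 32 columns are empty and were left out. The submitters' processing notes name CASAVA 1.8.2, TopHat2 2.0.13, edgeR and sacCer3. Annotation, filters and strand use in counting are not given in the sources used here, and the supplied paper does not describe this experiment. RPKM times gene length came out as whole multiples of 1 read in low single-exon genes, which implied 9900000 to 36530000 reads per library. At 3 reads, the floor for a 1 kb gene is 0.0821 to 0.303 RPKM, and it covers counting error only.

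Libraries were averaged per culture on log2(RPKM + 1), which understates changes of low genes, and fitted with limma 3.58.1 (R 4.3.3, lmFit, eBayes with trend, two-sided) over the 8 cultures of BY4741, sam1, ser33 and shm2. No filter was used. The fitting steps were tested on simulated data. Of the 7125 gene identifiers, 6079 matched the RefSeq annotation of R64. BLAST+ 2.17.0 marked genes with a near-identical copy (95% over 80% of the length). Members and gene lists were chosen with earlier results of these data known. Named genes were SHM2, its neighbours and the folate, glycine, serine and purine genes, genes with an adjusted p under 0.05, the 12 widest gaps between strains and the 12 largest differences between shm2 cultures each way, and the extremes of each other list. The genes called against sam1 or ser33, and BAS1, FCY2, FET3, SIT1, SRG1, PRM3 and FAR1, were chosen after their values were seen. Figures used matplotlib 3.10.9.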

Additional observations from a re-analysis of the deposited data

How the results depend on the processing

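The count of genes with an adjusted p under 0.05 in shm2 against BY4741 was 1 and became 0 with a pseudocount of 5, with only BY4741 and shm2 fitted and under a replicate block, and 2 (SHM2 and COS12) with the second libraries only. It was 0 to 0 when each BY4741 or shm2 culture was left out in turn. With the first libraries only it stayed at 1, but the gene was a tRNA gene, tY(GUA)F2, and not SHM2. BY4741 and shm2 share only replicate number 2. Across genes, those cultures deviated together (Pearson correlation 0.685), but the labels do not say that a number marks a shared batch, and 1 pair does not show whether the numbers pair the samples. With the block, the counts against sam1 and ser33 became 0 and 0. The count against sam1, 13, was 22 with a mean of at least 1 RPKM, 5 relative to ACT1 and 7 to 16 with a culture left out (7 without either BY4741 culture). The count against ser33, 2, was 6 with the first libraries only, 6 with a mean of at least 1 RPKM, 0 with a pseudocount of 5, 4 relative to ACT1 and 0 to 2 with a culture left out (0 without either shm2 culture). With the library number as a block, the differences between cultures numbered 3056 in place of 1970 within shm2 and 2520 in place of 1499 within BY4741. Relative to ACT1, which had 1104 and 1714 RPKM in the BY4741 cultures and 1773 and 1336 RPKM in the shm2 cultures, the median of all genes moved from -0.02 to -0.17, and both shm2 cultures lay above both BY4741 cultures in 449 genes and below in 674. The causes of these changes were not tested. The alternatives against sam1 and ser33, the pseudocounts within BY4741 and the settings of the counts of cultures beyond BY4741 were chosen after seeing the data. Genes named because all shm2 libraries lay beyond all BY4741 libraries cannot change direction when a culture or a library set is left out. With that limit, none of the 50 genes followed through 13 alternatives changed direction. SHM2 lost its call in 8 and COS12 gained one in 1 of them. The 50 do not hold every gene named above, so the count does not cover the rest. MIS1 and CDC21 were not among them. With shm2 culture 2 alone, their log2 differences from BY4741 were -0.12 and -0.03, in place of 0.29 and 0.51. The adjusted p of GCV2 ranged from 0.133 to 1 and that of GCV1 from 0.194 to 1. Of 55 list medians, all genes included, 32 changed sign in at least 1 setting. The glycine, purine synthesis, iron, phosphate, ribosome biogenesis, pheromone-induced and PAU lists did not. Others kept their sign as well, among them the histidine, ergosterol, fatty acid, sulfate assimilation, thiamine and meiosis lists. A kept sign is therefore not particular to the lists featured above.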
